A study of Mus musculus with 32 samples.

Results

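Late subjective day was compared with early subjective day in photoreceptors of mice that lack normal function of the clock genes Per1 and Per2. The comparison set 4 KO libraries taken at circadian time (CT) 10 against 4 KO libraries taken at CT1, 8 of the 32 libraries of the series, all assigned by their labels. KO stands for the Per1-/-Per2Brdm1 genotype, and both KO groups carry both alleles. The 4 WT libraries of CT10 and the 4 of CT1 served to test whether the same interval gave another difference without the mutations. The animals in all 16 libraries were 6-week-old males of the strain C57BL/6/J x 129 SvEvBrd. Photoreceptors, the light-sensing rods and cones, were cut by laser from snap-frozen eyes, and their messenger RNA was sequenced. The mutations are carried throughout the animal and not in photoreceptors alone.

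The circadian clock is a feedback loop of transcription. CLOCK and BMAL1, the product of Arntl, bind E-box sequences and switch on the Per and Cry genes, and the PER and CRY proteins then repress CLOCK and BMAL1. In the mouse retina the clock is known to set daily rhythms of dopamine signalling, cyclic AMP, synaptic transmission and the shedding of outer segment tips, which the pigment epithelium engulfs after dawn. The Per2Brdm1 allele is known as a deletion within the PAS domain, a part of PER2 that takes part in protein binding.

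The 8 KO libraries held 27890898 to 32605844 counts, against 23833604 to 34582742 over all 32 libraries, so a gene at 1 CPM (counts scaled to library size) rested on at least 27.9 counts. Of 54232 genes, 17871 had enough counts to be tested. All levels below are CPM further scaled by the TMM method, all fold changes are log2 of CT10 over CT1, and genes termed called have an adjusted p under 0.05 in edgeR's quasi-likelihood test, with Benjamini-Hochberg adjustment over all tested genes. The libraries are of bulk tissue, so fewer cells of a type and less RNA per cell cannot be told apart.

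No gene was called between CT10 and CT1 in KO photoreceptors, 0 of 17871 tested (0%). The smallest adjusted p of the edgeR quasi-likelihood test was 0.849. At an unadjusted p under 0.05, 488 genes were higher at CT10 (2.73%) and 523 were lower (2.93%), 1011 together (5.66%). That count fell to 631 without KO CT1 replicate 5. DESeq2 and limma-voom also called 0 genes, with 1105 and 2248 at an unadjusted p under 0.05. An edgeR fit of the 8 KO libraries alone called 0 of 16446 genes, with 1924 at an unadjusted p under 0.05. The counts at an unadjusted p under 0.05 from limma-voom and from the 8 KO libraries alone are larger shares of the tested genes than the 5.66% above. The 4 CT10 values lay above the 4 CT1 values in 472 genes (2.64%) and below them in 752 genes (4.21%), 1224 together (6.85%).

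WT photoreceptors differed between the same times. In WT, 1036 genes were called (5.80%), 494 higher at CT10 (2.76%) and 542 lower (3.03%), and 4001 genes (22.4%) had an unadjusted p under 0.05. The WT count was 492 without WT CT1 replicate 1 and 537 without WT CT1 replicate 5, and it was 641, 615 and 686 without WT CT10 replicates 1, 2 and 4. The median standard error of a log2 fold change was 0.186 in KO and 0.187 in WT. The joint fit gives both contrasts the same estimate of spread for each gene. These standard errors therefore do not compare the spread of KO libraries with that of WT libraries. The median size of a log2 fold change was 0.127 in KO and 0.215 in WT.

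**Figure D1:**
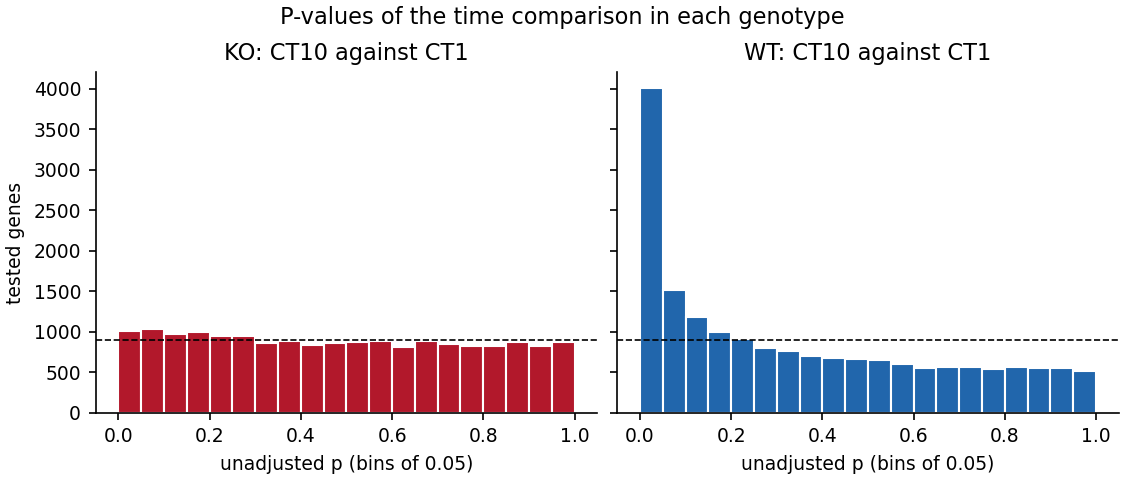
Number of tested genes (vertical axis) in each bin of 0.05 of the unadjusted p of CT10 against CT1 (horizontal axis), for KO on the left and WT on the right; the dashed line is the height of an even spread. The lowest bin holds 1011 genes in KO and 4001 in WT.

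The KO data bounded the differences they did not call. For 9563 genes (53.5%) the 95% interval of the KO log2 fold change lay within −0.58 and 0.58, a change of 1.5-fold either way, and for 13349 genes (74.7%) it lay within −1 and 1. Larger differences remained possible for the other genes. The genes called in WT were next looked up in KO. They were chosen by their WT values, so their WT medians are large through that choice, while the KO medians are not. The 494 genes higher at CT10 in WT had a median log2 fold change of 0.0146 in KO and 0.495 in WT. In KO 54.5% of them were above 0, against 51.8% of all tested genes. The 542 genes lower at CT10 in WT had a median of 0.000597 in KO and −0.516 in WT. In KO 49.6% of them were below 0, against 48.2% of all tested genes.

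All 26 core clock genes were tested and none was called in KO. Their median log2 fold change was −0.04, against 0.01 over all tested genes, and the range ran from −0.23 for Per3 to 0.70 for Npas2. The 95% interval lay within −0.58 and 0.58 for 22 of the 26, and beyond it for Arntl2, Npas2 and Fbxl21 among others. The CT10 and CT1 values overlapped in 25 of the 26; 6.85% of all tested genes had no overlap, so this count is near that of genes at large.

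Among the repressors of the loop, Per1 (ENSMUSG00000020893, chr11:69095217-69109960, plus strand) had 203, 181, 174 and 195 CPM at CT10 and 184, 208, 195 and 198 CPM at CT1 in KO. The groups overlapped, and the log2 fold change was −0.06 (95% interval −0.36 to 0.24). Per2 (ENSMUSG00000055866, chr1:91415982-91459324, minus strand) had 207, 184, 207 and 209.8 CPM at CT10 and 204, 206, 169 and 206 CPM at CT1, with KO CT10 replicate 3 and KO CT1 replicate 5 the low library of each time. Its log2 fold change was 0.04 (95% interval −0.31 to 0.39). Reads from both mutant genes were counted at both times. A count over a whole gene includes any transcript outside a deleted stretch, so these values do not check the mutations.

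Per3, the third Period gene, averaged 329.6 ± 28.9 CPM at CT10 and 386 ± 30.4 CPM at CT1 in KO (SD, n = 4 each), a log2 fold change of −0.23 (95% interval −0.57 to 0.12). Cry1, a cryptochrome repressor, averaged 91.03 ± 6.03 CPM at CT10 and 90.1 ± 2.95 CPM at CT1. Cry2, the other cryptochrome, averaged 153 ± 9.69 CPM at CT10 and 158 ± 7.56 CPM at CT1. Ciart, a repressor of CLOCK and BMAL1, had 12.6, 16.5, 14.6 and 14.2 CPM at CT10 and 11.4, 12.8, 17.3 and 15.2 CPM at CT1. The Ciart libraries of the 2 times were interleaved, and the log2 fold change was 0.03 (95% interval −0.38 to 0.45).

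Per1 and Ciart are shown by their promoters because both hold the letters of the E-box and both overlapped between the 2 times in KO. Each run covers 250 bases before to 50 after a start site, read 5′ to 3′ on the gene's strand, from RefSeq on GRCm38.p6. Capitals mark the E-box letters CACGTG and the D-box letters TTATGNAA, searched on both strands. For Per1, with 2 windows listed, the one shown is nearer to the annotated start of the gene, and its start site lies 3732 bases inside the gene as annotated. The Ciart run (chr3:95882179-95882478, minus strand) holds 3 matches of the E-box letters, and the Per1 run (chr11:69098699-69098998, plus strand) holds 1 match of each motif.
Ciart: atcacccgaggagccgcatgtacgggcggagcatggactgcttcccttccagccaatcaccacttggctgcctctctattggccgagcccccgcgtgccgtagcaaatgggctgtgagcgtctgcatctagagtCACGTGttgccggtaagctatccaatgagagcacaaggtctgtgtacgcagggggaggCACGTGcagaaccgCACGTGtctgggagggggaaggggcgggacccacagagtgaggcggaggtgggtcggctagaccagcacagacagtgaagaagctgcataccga
Per1: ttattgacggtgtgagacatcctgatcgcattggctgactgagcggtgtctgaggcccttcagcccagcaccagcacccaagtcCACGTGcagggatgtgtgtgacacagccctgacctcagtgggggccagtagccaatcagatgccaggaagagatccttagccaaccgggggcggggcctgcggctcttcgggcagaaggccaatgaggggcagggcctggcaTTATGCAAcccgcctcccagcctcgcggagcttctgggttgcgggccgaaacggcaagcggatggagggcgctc
RefSeq windows were matched for 21 of the 26 clock genes. The E-box letters were in 5 of these 21 windows, those of Per1, Cry1, Ciart, Tef and Bhlhe41, against 7.15% of 32851 windows of the same length. The D-box letters were in 2 of 21, those of Per1 and Per3, against 3.38%. The log2 fold changes of the 5 genes with E-box letters were −0.06, 0.02, 0.03, −0.08 and −0.15 in KO. A match of letters is a description and not a site.

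**Figure D2:**
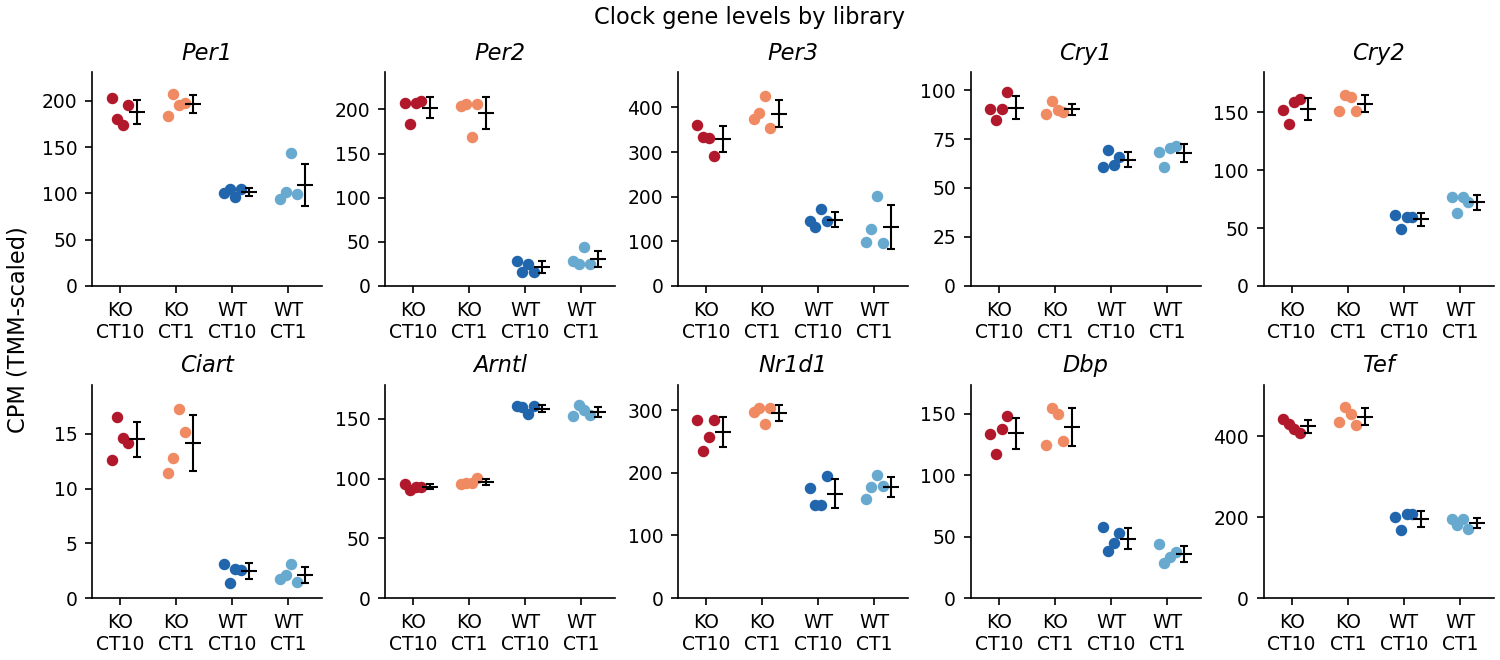
Level in TMM-scaled CPM (vertical axis, from 0, a scale of its own in each panel) of 10 clock genes in each library of KO CT10, KO CT1, WT CT10 and WT CT1; points are libraries and bars are the mean ± SD of 4. In KO the CT10 and CT1 points overlap in all 10 genes, as for Ciart at 14.5 ± 1.60 and 14.2 ± 2.59 CPM.

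The activators also overlapped between the times in KO. Arntl had 95.6, 90.5, 93.1 and 93.4 CPM at CT10 and 95.5, 96.5, 96.6 and 101 CPM at CT1, and its log2 fold change was −0.06 (95% interval −0.19 to 0.07). Clock, the partner of BMAL1, averaged 169.7 ± 12.7 CPM at CT10 and 173 ± 16.4 CPM at CT1. Npas2, which can stand in for CLOCK, was low at 0.640 ± 0.109 CPM at CT10 and 0.393 ± 0.162 CPM at CT1, and its log2 fold change of 0.70 (95% interval −0.16 to 1.56) had the widest interval of the list. Nr1d1, a nuclear receptor that represses Arntl, averaged 265 ± 23.9 CPM at CT10 and 295 ± 12.2 CPM at CT1. Its relative Nr1d2 averaged 315 ± 10.5 CPM at CT10 and 298 ± 27.8 CPM at CT1. Bhlhe41, a repressor that binds E-boxes, was the 1 clock gene whose groups did not overlap.

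Bhlhe41 had 315, 316, 289 and 331 CPM at CT10 and 351, 344, 351 and 343 CPM at CT1 in KO, all CT10 values below all CT1 values, with a log2 fold change of −0.15 (95% interval −0.36 to 0.05) and an edgeR quasi-likelihood adjusted p of 0.883. Such a gap in this direction was found in 4.21% of all tested genes. The output genes Dbp, Tef and Hlf encode factors that bind D-boxes. Dbp had 133, 118, 138 and 148 CPM at CT10 and 125, 155, 150.1 and 128 CPM at CT1 in KO, and the groups overlapped, with a log2 fold change of −0.05 (95% interval −0.30 to 0.20). Tef averaged 424 ± 15.1 CPM at CT10 and 448 ± 20.8 CPM at CT1, and Hlf averaged 152 ± 9.29 CPM at CT10 and 141 ± 13.2 CPM at CT1. Nfil3, which represses from the same D-boxes, averaged 7.76 ± 1.60 CPM at CT10 and 8.70 ± 1.40 CPM at CT1. Usp2, a clock-controlled protease, averaged 274 ± 10.7 CPM at CT10 and 307 ± 23.4 CPM at CT1.

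In WT, Dbp was called higher at CT10 (log2 fold change 0.43, SE 0.12), and Cry2 (−0.33, SE 0.08) and Csnk1e (−0.30, SE 0.08), a kinase of PER proteins, were called lower. WT Dbp had 57.7, 38.7, 44.8 and 53.00 CPM at CT10 and 43.8, 28.7, 33.6 and 37.95 CPM at CT1. Whether KO and WT differed in the time difference was tested by itself, as KO (CT10 − CT1) minus WT (CT10 − CT1). This difference was called in 0 of the 26 clock genes by edgeR. It was −0.48 (SE 0.17) for Dbp, 0.58 (SE 0.25) for Per2 and −0.40 (SE 0.13) for Usp2, with edgeR quasi-likelihood adjusted p-values of 0.188, 0.264 and 0.155. Nr1d1, Dbp, Tef, Bhlhe41 and Csnk1d share annotated exons with a gene on the opposite strand, and the strand setting of the counting is not given in the sources used, so their values are less certain.

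**Figure D3:**
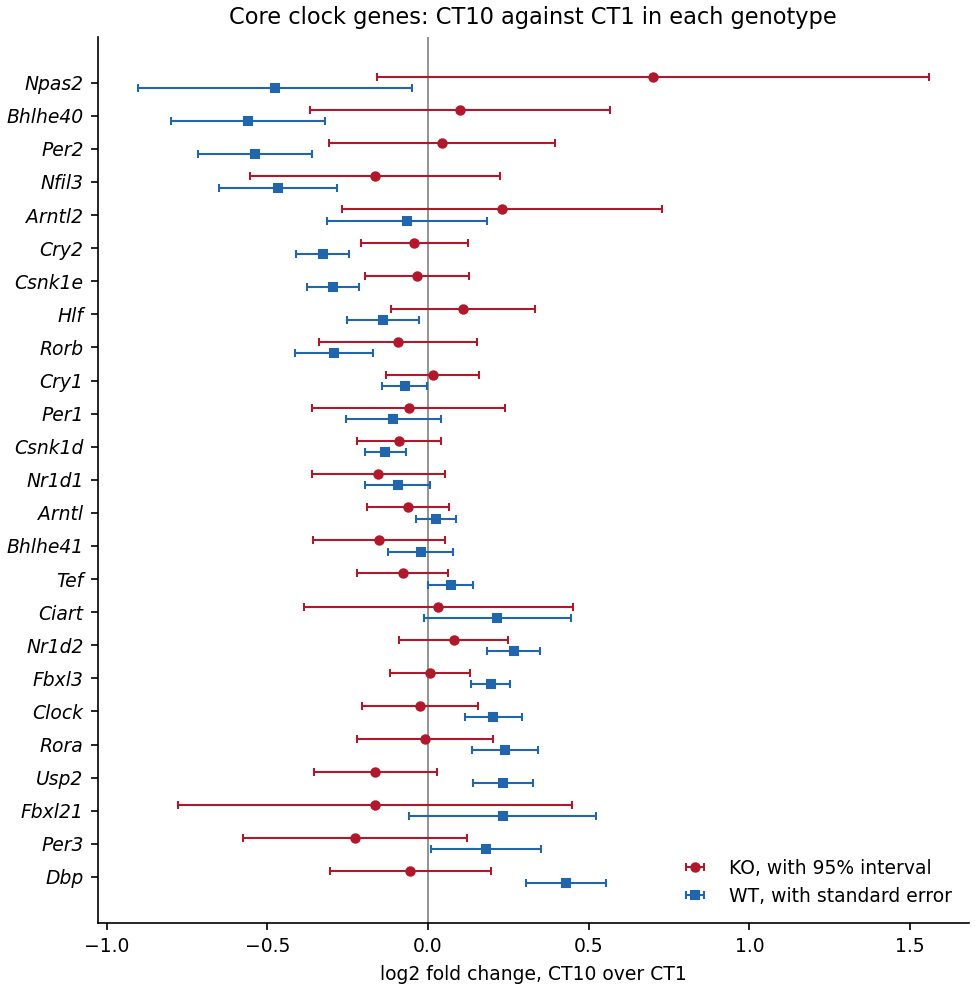
Log2 fold change of CT10 over CT1 (horizontal axis) for 25 of the 26 core clock genes, ordered by the KO minus WT difference; circles are KO with 95% intervals and squares are WT with standard errors, 4 libraries a group. The KO intervals shown all cross 0, while WT Dbp sits at 0.43.

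Over all genes, the time difference differed between genotypes in 105 genes (0.588%), 57 with KO above WT (0.319%) and 48 with KO below WT (0.269%), and 2684 genes had an unadjusted p under 0.05. In these 105 genes the median size of the log2 fold change was 0.147 in KO and 0.809 in WT. The KO and WT fold changes had opposite signs in 82 of the 105. In 20 of the 105 the KO unadjusted p of edgeR was under 0.05, against 5.66% of all tested genes. The genes were chosen by the difference itself, and 101 of them were also called in WT, so these medians and counts are not independent of the choice. The count depended on single libraries and on marker levels. It was 59, 35 and 69 without KO CT1 replicates 1, 5 and 6, and 52, 37 and 51 without KO CT10 replicates 2, 4 and 5. It was 33, 256 and 67 without WT CT1 replicates 1, 3 and 5, and 48 without WT CT10 replicate 2. With the level of inner retina markers as a covariate 26 genes were called, and 3 with inner retina and lens levels. Among the genes named from this test, Dip2b, Rims2, Drd4, Pdzph1, Dnajb2, Klf7 and Akap5 were called with the inner retina covariate, and Dip2b and Dnajb2 with both. Outside the covariates, Prkar1b and Rcvrn lost the call under 14 of 24 alternatives each, Adcy8 and Ier2 under 12 of 24 each, Plk3 under 3 of 23, Pde10a under 2 of 24, and Adcy1 and Akap5 under 1 of 24 each. The inner retina level was 4.26 ± 0.16 in KO CT10, 3.99 ± 0.17 in KO CT1, 3.39 ± 0.31 in WT CT10 and 3.86 ± 0.34 in WT CT1 (mean log2 CPM, SD, n = 4 each).

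The dopamine, melatonin and cyclic AMP list held 6 such genes of 19 tested, against 0.588% of all tested genes. The list was chosen with earlier results of these data known, so this count is a description and not a test of the list. Of the 6, Drd4 and Akap5 were called with the inner retina covariate and none with both covariates. In KO, none of the 19 was called, 10 were above 0 and 9 below, and the median was 0.06. Drd4 (ENSMUSG00000025496, chr7:141292006-141296464, plus strand), the dopamine receptor of photoreceptors, had 606, 433, 617 and 665 CPM at CT10 and 621, 714, 658 and 649 CPM at CT1 in KO, with replicate 3 of CT10 the low library and the groups overlapping. WT Drd4 had 366, 297, 315 and 339 CPM at CT10 and 723, 589.5, 734 and 821 CPM at CT1, with every CT10 value below every CT1 value. The KO log2 fold change was −0.19 (95% interval −0.40 to 0.03) and the WT one −1.12. Their difference was 0.94 (SE 0.15), with an edgeR quasi-likelihood adjusted p of 0.00352. At CT19 and CT22, KO Drd4 averaged 679 ± 58.1 and 686 ± 61.04 CPM.

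Adcy1, a calcium-stimulated adenylyl cyclase, had 621, 599, 474 and 477 CPM at CT10 and 644, 634, 571 and 649 CPM at CT1 in KO, against 667, 790.0, 688 and 793 CPM at CT10 and 416, 571, 445 and 382 CPM at CT1 in WT. The log2 fold change was −0.20 in KO and 0.70 in WT, where it was called, a difference of −0.90 (SE 0.18). Pde10a, a phosphodiesterase that degrades cyclic nucleotides, averaged 7.45 ± 1.80 CPM at CT10 and 9.79 ± 2.57 CPM at CT1 in KO and 3.61 ± 0.551 CPM at CT10 and 16.3 ± 4.98 CPM at CT1 in WT, a difference of 1.78 (SE 0.37). Akap5, which anchors protein kinase A, averaged 11.1 ± 1.12 CPM at CT10 and 14.04 ± 2.60 CPM at CT1 in KO and 3.75 ± 0.980 CPM at CT10 and 1.58 ± 0.0891 CPM at CT1 in WT, a difference of −1.58 (SE 0.30). The edgeR quasi-likelihood adjusted p-values of these 3 genes were 0.0164, 0.0216 and 0.0107. Prkar1b, a regulatory subunit of protein kinase A, and Adcy8, a second calcium-stimulated cyclase, were also called, with differences of 1.13 (SE 0.26) and 2.06 (SE 0.49) and edgeR quasi-likelihood adjusted p-values of 0.0394 and 0.042. Both are named after their values were seen. Among the receptors outside the call, named after their values were seen, Drd2 had 13.1, 10.8, 13.7 and 10.7 CPM at CT10 and 8.25, 9.84, 9.21 and 9.92 CPM at CT1 in KO, a gap in a direction found in 2.64% of all tested genes. Drd1 had 5.15, 6.02, 7.79 and 5.89 CPM at CT10 and 4.88, 4.84, 2.91 and 6.35 CPM at CT1, with the groups overlapping.

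Immediate early genes, which respond fast to activity and stress, were not called in KO: of 19 tested 0 passed, 12 were above 0 and 7 below, and the median was 0.12. Nr4a1, an orphan nuclear receptor, had 67.5, 44.2, 53.7 and 79.2 CPM at CT10 and 85.4, 82.7, 50.7 and 57.5 CPM at CT1 in KO, values that overlapped over nearly their whole range. In WT it had 19.9, 19.6, 21.6 and 23.8 CPM at CT10 and 72.8, 51.7, 109 and 97.5 CPM at CT1, with every CT10 value below every CT1 value. The difference was 1.79 (SE 0.33), with an edgeR quasi-likelihood adjusted p of 0.0107. Ier2 gave a difference of 1.12 (SE 0.25) with an edgeR quasi-likelihood adjusted p of 0.033. The 5 other members named next were called lower at CT10 in WT and are named after their values were seen. Fos, Junb, Jund, Nr4a3 and Dusp1 had log2 fold changes of 0.28, −0.07, −0.12, −0.57 and 0.00 in KO, and of −1.57, −0.98, −0.35, −1.98 and −1.04 in WT. For these 5 the difference between genotypes was not called, with edgeR quasi-likelihood adjusted p-values from 0.0691 to 0.468. Junb, Jund and Dusp1 share exons with a gene on the opposite strand.

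Transmitter release at the photoreceptor ribbon synapse was represented by 27 tested genes, of which none was called in KO, 8 were above 0 and 19 below, with a median of −0.06. Rims2, a scaffold of the release site, had 289, 362, 272 and 303 CPM at CT10 and 359, 314, 309 and 385 CPM at CT1 in KO, and the groups overlapped. WT Rims2 had 491, 515, 411 and 527 CPM at CT10 and 251, 308, 291 and 308 CPM at CT1, every CT10 value above every CT1 value. The difference was −0.91 (SE 0.14) for Rims2, with an edgeR quasi-likelihood adjusted p of 0.00237.

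Acadm, the medium-chain acyl-CoA dehydrogenase of fatty acid oxidation, had 63.8, 76.3, 59.4 and 63.2 CPM at CT10 and 67.2, 56.9, 73.1 and 56.6 CPM at CT1 in KO, with the 2 times interleaved, and 112, 154, 114 and 134 CPM at CT10 and 61.6, 70.7, 57.2 and 72.6 CPM at CT1 in WT. The difference was −0.92 (SE 0.16), with an edgeR quasi-likelihood adjusted p of 0.00589. None of the 25 tested genes of fatty acid oxidation was called in KO (median −0.02). Dip2b, of the disco-interacting protein 2 family, averaged 119 ± 10.3 CPM at CT10 and 105 ± 10.97 CPM at CT1 in KO and 77.01 ± 4.57 CPM at CT10 and 136 ± 11.4 CPM at CT1 in WT. Dnajb2, a co-chaperone of HSP70 proteins, averaged 115 ± 9.40 CPM at CT10 and 119.7 ± 5.58 CPM at CT1 in KO and 92.03 ± 3.11 CPM at CT10 and 153 ± 16.6 CPM at CT1 in WT. Pdzph1 averaged 247 ± 28.3 CPM at CT10 and 263 ± 35.1 CPM at CT1 in KO and 570.1 ± 108 CPM at CT10 and 254 ± 40.3 CPM at CT1 in WT. Klf7, a Krüppel-like transcription factor, averaged 22.9 ± 0.813 CPM at CT10 and 24.8 ± 1.37 CPM at CT1 in KO and 33.9 ± 1.86 CPM at CT10 and 21.1 ± 3.18 CPM at CT1 in WT. The differences of these 4 genes were 0.999 (SE 0.15), 0.67 (SE 0.11), −1.26 (SE 0.21) and −0.80 (SE 0.14), with edgeR quasi-likelihood adjusted p-values of 0.00237, 0.00525, 0.00525 and 0.00589.

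**Figure D4:**
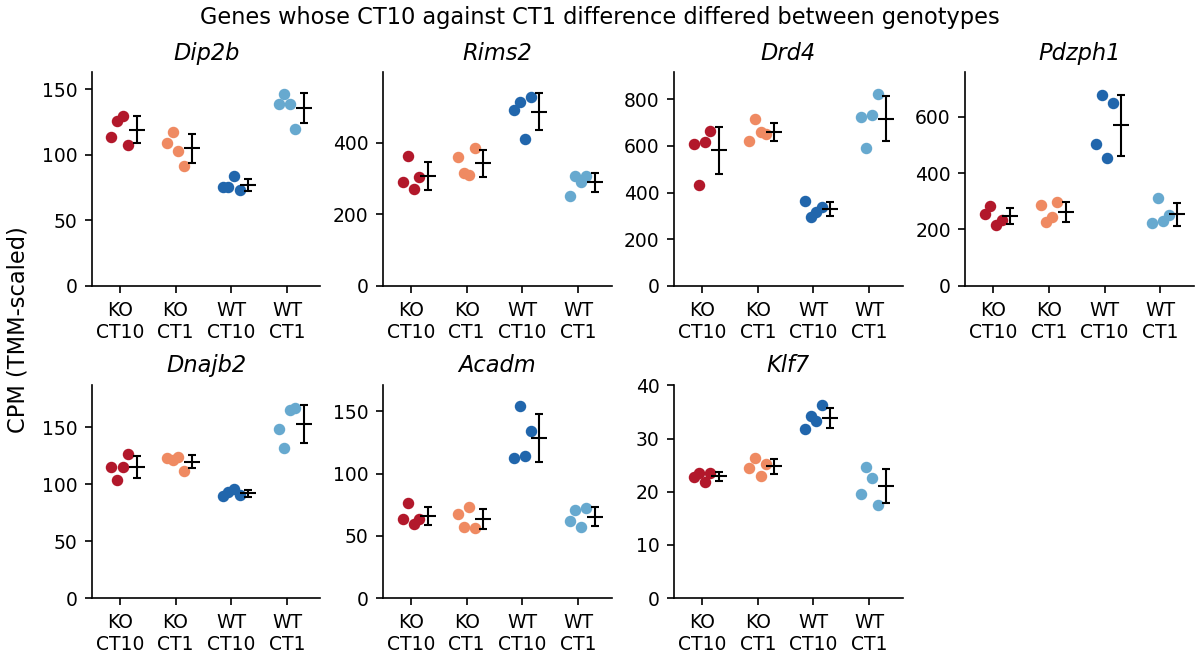
Level in TMM-scaled CPM (vertical axis, from 0, a scale of its own in each panel) of 7 genes among those with the smallest p for the KO minus WT difference, in each library of KO CT10, KO CT1, WT CT10 and WT CT1; points are libraries and bars are the mean ± SD of 4. KO CT10 and KO CT1 overlap in every panel, and WT Drd4 averages 329 ± 29.6 and 717 ± 95.6 CPM at the 2 times.

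Genes of the photoreceptor's own machinery were also not called in KO. Of 21 rod phototransduction genes 0 were called, 1 was above 0 and 20 below, and the median was −0.13, against 0.01 over all tested genes. Rcvrn, recoverin, a calcium sensor of rods, had 1998, 1569, 1817 and 1981 CPM at CT10 and 1968, 2088, 1748 and 1776 CPM at CT1 in KO and 1371, 1549, 1307 and 1381 CPM at CT10 and 2785, 2197, 1953 and 3121 CPM at CT1 in WT. The difference of Rcvrn was 0.80 (SE 0.19), with an edgeR quasi-likelihood adjusted p of 0.0481. Of 14 cone phototransduction genes 0 were called (5 above 0, 9 below, median −0.02). Of 25 genes of outer segment structure and the visual cycle 0 were called (6 above 0, 19 below, median −0.05).

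The list for phosphatidylserine exposure and phagocytosis, the process by which outer segment tips are marked and engulfed, had 33 tested genes. In KO 0 were called, 20 were above 0 and 13 below, and the median was 0.05. The level of the list was 4.344 to 4.507 at CT10 and 4.224 to 4.339 at CT1 in KO (mean log2 CPM), so the ranges barely missed each other. In WT the levels overlapped, at 4.189 to 4.382 at CT10 and 4.225 to 4.439 at CT1. The levels of the rod, bipolar, horizontal, microglia and vascular lists also did not overlap in KO. Gas6, a ligand that bridges phosphatidylserine to the receptor MERTK, had 273, 253, 242 and 269.7 CPM at CT10 and 280.3, 316, 296 and 287 CPM at CT1 in KO and 239.9, 278, 232 and 233 CPM at CT10 and 286, 307, 302 and 346 CPM at CT1 in WT. In each genotype the CT10 values lay below the CT1 values, with log2 fold changes of −0.19 in KO, where it was not called, and −0.34 in WT, where it was. The difference for Gas6 was 0.15 (SE 0.12), with an edgeR quasi-likelihood adjusted p of 0.579. Such a gap in this direction was found in KO in 4.21% of all tested genes. Gas6 shares exons with a gene on the opposite strand, and is named after its values were seen.

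The remaining lists gave 0 called genes in KO as well. Glycolysis and glucose uptake had 14 of 28 genes above 0 and a median of 0.00, where Ldha, lactate dehydrogenase, averaged 1437 ± 160.2 CPM at CT10 and 1380.5 ± 46.5 CPM at CT1 in KO and 1116 ± 75.5 CPM at CT10 and 1444 ± 193 CPM at CT1 in WT. Autophagy had 10 of 26 above 0, cholesterol synthesis 13 of 23, the unfolded protein response 16 of 22 and heat shock chaperones 8 of 22. All 11 tested mitochondrially encoded genes were below 0, with a median of −0.24, and their level overlapped between the times. Of cell cycle and growth control genes, 10 of 18 were above 0. In that list Plk3, a stress-responsive kinase, had 0.557, 0.504, 0.672 and 0.646 CPM at CT10 and 0.281, 0.443, 0.256 and 0.344 CPM at CT1 in KO and 0.237, 0.0928, 0.178 and 0.0614 CPM at CT10 and 0.847, 0.473, 0.564 and 0.774 CPM at CT1 in WT, a difference of 3.03 (SE 0.62) with an edgeR quasi-likelihood adjusted p of 0.018. All these Plk3 levels were below 1 CPM and those of WT CT10 rested on few reads, so the size of its difference is uncertain.

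Levels of some marker lists for other cells of the eye lay apart between the KO groups, and those of others overlapped. The list levels were not tested, and no single marker was called in KO. As single genes, 6 of 15 bipolar, 3 of 9 microglia and 2 of 8 horizontal markers had all CT10 values above all CT1 values in KO. So did 2 of 15 Müller glia, 1 of 13 amacrine and 1 of 14 vascular and blood markers, and 0 markers of these lists lay wholly below. Over all tested genes the shares were 2.64% above and 4.21% below. These shares are of single genes and are no reference for list levels. Markers of a list were measured in the same libraries, so they are not separate observations. All 15 bipolar markers were above 0 in KO, with a median log2 fold change of 0.40. Their level was 5.18 to 5.55 at CT10 and 4.73 to 5.13 at CT1 (mean log2 CPM with 0.5 CPM added), with no overlap. Cabp5, a calcium-binding protein of bipolar cells, averaged 63.7 ± 20.7 CPM at CT10 and 36.4 ± 5.84 CPM at CT1. The bipolar marker Scgn and the horizontal cell marker Sept4 were called in the KO minus WT difference, at 1.65 (SE 0.35) and 0.66 (SE 0.13), with edgeR quasi-likelihood adjusted p-values of 0.0257 and 0.0113. The level of horizontal cell markers was 2.91 to 3.11 at CT10 and 2.66 to 2.84 at CT1, and that of microglia 0.74 to 0.79 at CT10 and 0.30 to 0.62 at CT1. The microglia markers C1qc, Tmem119 and P2ry12 averaged 0.70, 0.52 and 0.58 CPM at CT10 and 0.33, 0.22 and 0.30 CPM at CT1. Such values are close to the 0.5 CPM added, so the size of the microglia gap is uncertain. All 15 Müller glia markers were above 0 (median 0.24), with overlapping levels. Of 13 amacrine markers, 10 were above 0 and 3 below, and their levels overlapped, at 2.523 to 2.774 at CT10 and 2.163 to 2.705 at CT1. The vascular and blood level was 1.68 to 1.95 at CT10 and 1.51 to 1.59 at CT1. Of the ganglion cell markers, 7 of 10 were below 0, and their levels overlapped. The rod phototransduction level was lower at CT10, at 11.30 to 11.47, against 11.49 to 11.56 at CT1.

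All 20 lens markers were below 0 in KO, with a median of −1.33, and their level was 2.49 to 5.76 at CT10 and 4.08 to 7.30 at CT1, so the libraries overlapped widely. Bfsp2, a lens fibre protein, had 0.557, 1.17, 0.214 and 0.0718 CPM at CT10 and 0.421, 6.55, 33.7 and 0.876 CPM at CT1, and the CT1 mean of 10.4 CPM was 2.62 CPM without replicate 5. Of the pigment epithelium markers, 10 of 12 were below 0, among them Tyrp1, an enzyme of melanin synthesis, with 0.453, 0.599, 0.153 and 0.287 CPM at CT10 and 0.140, 1.27, 3.65 and 1.13 CPM at CT1. The Tyrp1 mean at CT1 was 1.54 CPM, and 0.844 CPM without replicate 5. In WT the bipolar level was 4.06 ± 0.42 at CT10 and 4.52 ± 0.45 at CT1, opposite in order to KO. Adding the inner retina level, or it and the lens level, to the fit left 0 genes called in KO, with 628 and 679 at an unadjusted p under 0.05.

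**Figure D5:**
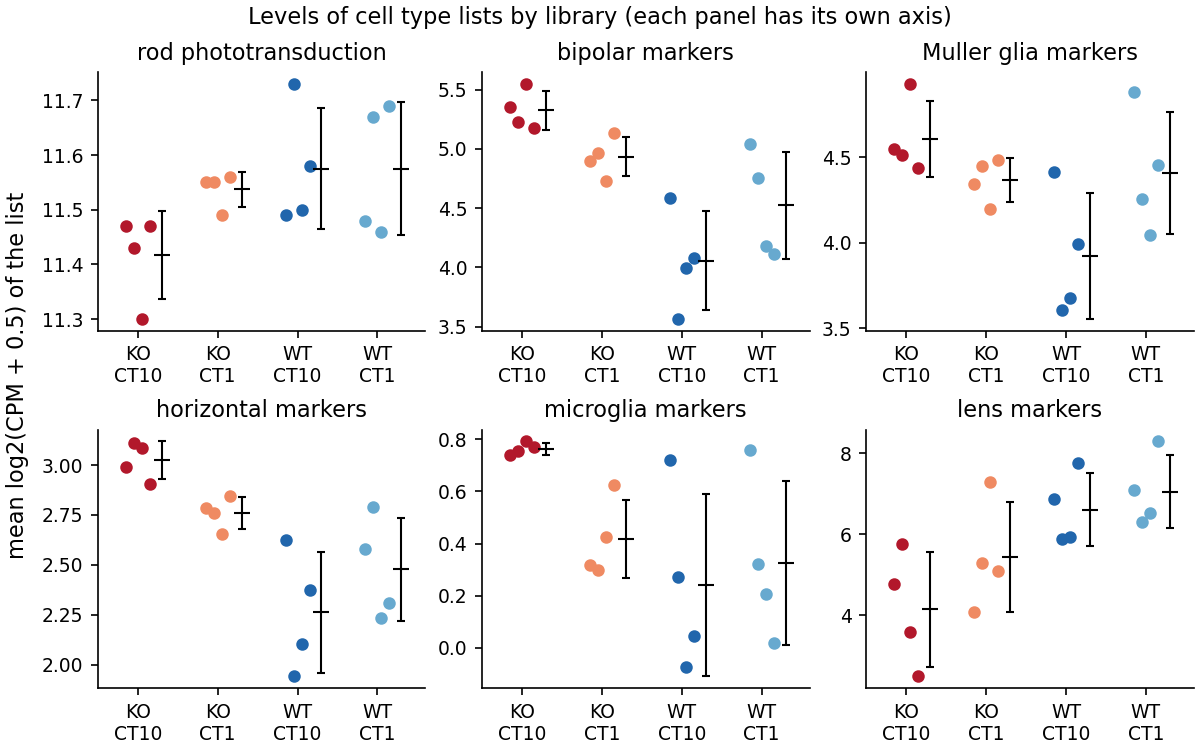
Mean log2(CPM + 0.5) of 6 gene lists (vertical axis, a scale of its own in each panel that does not start at 0) in each library of KO CT10, KO CT1, WT CT10 and WT CT1; points are libraries and bars are the mean ± SD of 4. Bipolar levels are 5.18 to 5.55 in KO CT10 and 4.73 to 5.13 in KO CT1, while lens levels overlap.

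The genes with the smallest unadjusted p in KO among those with separate groups are described without support from the adjusted test, and were chosen after their values were seen. All 8 had an edgeR quasi-likelihood adjusted p of 0.849. Zfp646, a zinc finger gene, had 89.6, 85.3, 80.1 and 85.8 CPM at CT10 and 109.7, 111, 111 and 111 CPM at CT1, a log2 fold change of −0.38 (95% interval −0.56 to −0.19). Osbpl9, an oxysterol-binding protein relative, had 48.4, 52.2, 53.8 and 52.7 CPM at CT10 and 41.3, 42.01, 40.99 and 42.4 CPM at CT1, and in WT it was also called, higher at CT10 (0.31). Rncr4, a retinal non-coding RNA, had 156, 165, 167 and 163 CPM at CT10 and 200.2, 215, 240.0 and 204 CPM at CT1. Nfkbiz, an inhibitor of NF-κB, had 14.6, 14.03, 16.8 and 13.9 CPM at CT10 and 28.8, 19.98, 17.3 and 23.9 CPM at CT1, with the CT1 values more spread than the CT10 values. The other 4, Zfp629, Ksr1, Ube2o and Map1s, had log2 fold changes of −0.29, −0.35, −0.27 and −0.42. Zfp646 and Osbpl9 share exons with a gene on the opposite strand.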

How the data were processed

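Messenger RNA of laser-microdissected photoreceptors was measured as raw read counts per Ensembl gene, which the authors deposited as a single table of 32 libraries. Per the submitters' processing notes, Trimmomatic 0.32, HISAT2 2.1.0, Cufflinks and HTSeq 0.11 were used with build GRCm38.p6; their roles, the annotation release and the strand setting are not stated in the sources at hand. Gene names and positions came from GENCODE for GRCm38, which named 99.7% of the identifiers, and promoters from RefSeq.

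Analysis used edgeR 4.0.16 under R 4.3.3. filterByExpr (minimum count 10, total 15) kept 17871 genes, which held at least 99.93% of each library's counts. Libraries were TMM-scaled, and all 32 entered 1 robust quasi-likelihood fit with 8 group means (24 residual degrees of freedom, biological coefficient of variation 0.199). Intervals are 95% intervals of the log2 fold change between group means and not of single libraries. Standard errors were derived from the log2 fold change and the F statistic of the quasi-likelihood test. DESeq2 1.42.0, limma 3.58.1, other filters, blocks, marker covariates and each library left out were the alternatives. Scripts were tested on simulated data.

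The labels number the animals, and p-values treat libraries as separate animals; 1 WT CT1 library, replicate 5, carries 2 animal numbers and was used as 1. Library pairs within KO CT10 and KO CT1 differed by more than counting error (a chi-square of 12.02 to 37.75 per degree of freedom). The highest pair was at 107.4 in KO CT19, 84.35 in KO CT22 and 74.49 in WT CT1. In WT CT10, WT CT19 and WT CT22 it was at 39.42, 44.5 and 33.61. The spread behind the KO standard errors, intervals and p-values was estimated over all 8 groups, so it also rests on these libraries.

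Members and the 30 gene lists were chosen with earlier results of these data known. Genes named were the core clock list, the 8 smallest p-values of the KO minus WT difference at a mean of at least 2 CPM, up to 4 called members of each pathway list and 3 top markers of each marker list. Because no gene was called in KO, the 8 smallest unadjusted p-values there, among genes at that level whose CT10 and CT1 values did not overlap, were added after the values were seen, as were list members called in WT and Drd1 and Drd2. A few genes that these rules pick are not reported here.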

Additional observations from a re-analysis of the deposited data

Results flagged for a closer look

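Single libraries stood apart from the other 3 of their KO group in 8 of 160 groups examined, and chance alone flags about 1 in 20, or 8. The test was the gap to the nearest library over the group's range, held against Dixon's 95% critical value. KO CT1 replicate 5 was apart in 5 of them: Map1s at 50.9 CPM, Per2 at 169 CPM, the core clock level at 6.12, the heat shock chaperone level at 5.49 and the rod phototransduction level at 11.49 (log2 CPM). The others were Nr1d2 at 339 CPM in KO CT1 replicate 1, Per2 at 184 CPM in KO CT10 replicate 3 and Zfp629 at 89.0 CPM in KO CT1 replicate 6. Without KO CT1 replicate 5, 0 genes were called in KO by edgeR and 631 had an unadjusted p under 0.05.

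The time difference differed between the genotypes, by the test of the difference itself, in 7 genes among those with the smallest p. KO minus WT was 0.999 (SE 0.15) for Dip2b, 0.94 (SE 0.15) for Drd4 and 0.67 (SE 0.11) for Dnajb2 on the log2 scale. It was −0.91 (SE 0.14) for Rims2, −1.26 (SE 0.21) for Pdzph1, −0.92 (SE 0.16) for Acadm and −0.80 (SE 0.14) for Klf7.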

How the results depend on the processing

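The count of genes called between KO CT10 and KO CT1 was 0 under all 18 alternatives, leave-one-out fits included (0 to 0), with 628 to 2248 genes at an unadjusted p under 0.05. It follows that, of the 1089 values of the named KO genes under these alternatives, 0 were called. The count for the KO minus WT difference, 105, was 352 with DESeq2, 69 with no filter on low counts, 26 with the inner retina covariate and 3 with inner retina and lens covariates, and 33 to 256 with single libraries left out. The count for WT, 1036, was 1583 with DESeq2, 522 with limma-voom and 618 with no filter, and 492 to 1467 with single libraries left out; these WT alternatives were added after seeing the data. The causes of these changes were not tested. For 17 genes of the difference there were 441 values under alternatives, of which 357 stayed on the same side of the threshold, 84 lost the call and 0 changed sign. Of these genes 9 were called under every alternative outside the covariates, 7 with the inner retina covariate and 2 with both covariates.

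Animal numbers 4 and 5 occur in both KO groups, and same-numbered libraries deviated with a Pearson r over genes of 0.00812 and 0.0411. Libraries with unlike numbers gave −0.101 to 0.136. So few same-numbered libraries cannot show whether the numbers pair the libraries. With animal number as a replicate block the counts were 0 for KO, 121 for the difference and 933 for WT. Depth limits genes near 1 CPM, where the intervals were widest among clock genes.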
